A study of Mus musculus with 8 samples.

Results

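The nuclear genes for subunits of the 5 oxidative phosphorylation complexes were followed across 4 groups of mouse cells. A gene was included when its symbol began with Ndufa, Ndufb, Ndufc, Ndufs or Ndufv and a digit, with Uqcr, with Cox4 to Cox8 or with Atp5, or was Sdha, Sdhb, Sdhc or Sdhd. The rule itself used symbols and no measured values, though it was chosen with earlier results of these data known. This gave 164 of 45037 probe sets (sets of short array probes that read 1 transcript), which belonged to 81 of the 18193 genes with probe sets of a single symbol. Of these genes, 35 belong to complex I, 4 to complex II, 8 to complex III, 17 to complex IV and 17 to complex V, by their names. After a filter on low signal, 78 of the 81 genes were tested among 12223 genes. Ndufb4, Cox7b2 and Cox8b did not pass it, since their probe sets with 1 symbol were too dim.

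RNA from 8 samples was hybridised to Affymetrix mouse expression arrays, in 4 groups of 2. All samples carried a green fluorescent protein (GFP) reporter for Aid, the gene of the cytidine deaminase that mutates antibody genes in activated B cells. The first pair of groups was BCR-ABL1 cells labelled BM, GFP-negative or GFP-positive. BCR-ABL1 is the fusion kinase of Philadelphia chromosome-positive leukaemia. The second pair was splenic B cells stimulated with LPS, a bacterial activator of B cells, and the cytokine IL-4, again GFP-negative or GFP-positive. The sources used here do not state how BCR-ABL1 was introduced, the mouse strain and age, how the reporter was built or how cells were purified, and nothing there says that replicates came from separate mice or cultures. The p-values therefore measure the spread between these arrays, which may be technical, and the number of arrays limits the precision. An exact permutation test of 2 arrays against 2 cannot go below p = 0.333, so single genes were tested with limma across all genes.

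Oxidative phosphorylation makes most of the ATP of resting cells. Complexes I and II pass electrons from NADH and succinate to coenzyme Q, complex III passes them to cytochrome c, and complex IV reduces oxygen. Complexes I, III and IV pump protons across the inner mitochondrial membrane, and complex V, the ATP synthase, uses their return to make ATP. Nuclear genes encode most subunits and mitochondrial DNA a few core ones, which are not among the genes described here. B cells enlarge their mitochondria and raise respiration as they are activated and begin to divide.

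Promoters of these genes are known for sites of the transcription factors NRF-1, GABP (an ETS factor) and YY1. RefSeq windows of GRCm38.p6, 250 bases before to 50 bases after a start site, were available for 66 of the 81 genes, in 71 windows. On either strand, the NRF-1 core GCATGCGC was in 12.7% of the 71 windows and in 2.71% of all 32851 windows. The ETS core CCGGAAG was in 23.9% against 8.86%, and the YY1 core AAGATGGCG in 8.45% against 1.4%. None of the 3 cores contains another. The 120 bases before the start are shown for 4 genes that hold a core and were called higher in GFP-positive spleen cells under every scaling described below, and for 2 isoform genes with large differences and no core, with the cores in capitals. The stretches are Sdhb at chr4:140961151-140961270 (plus strand), Uqcr11 at chr10:80406822-80406941 (minus strand), Atp5j at chr16:84834977-84835096 (minus strand), Atp5k at chr5:108434400-108434519 (minus strand), Cox7a1 at chr7:30184051-30184170 (plus strand) and Cox6b2 at chr7:4753095-4753214 (minus strand).
Sdhb: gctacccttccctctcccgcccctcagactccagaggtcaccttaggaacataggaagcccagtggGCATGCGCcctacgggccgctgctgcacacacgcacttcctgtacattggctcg
Uqcr11: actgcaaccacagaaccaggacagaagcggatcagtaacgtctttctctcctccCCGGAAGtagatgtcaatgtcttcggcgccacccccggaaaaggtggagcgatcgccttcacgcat
Atp5j: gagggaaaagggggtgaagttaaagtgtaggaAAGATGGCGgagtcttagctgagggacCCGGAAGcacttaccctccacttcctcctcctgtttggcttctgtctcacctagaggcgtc
Atp5k: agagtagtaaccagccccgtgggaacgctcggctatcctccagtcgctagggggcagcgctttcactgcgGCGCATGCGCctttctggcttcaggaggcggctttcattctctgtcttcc
Cox7a1: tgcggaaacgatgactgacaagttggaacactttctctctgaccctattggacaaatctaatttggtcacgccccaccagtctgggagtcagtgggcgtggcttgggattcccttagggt
Cox6b2: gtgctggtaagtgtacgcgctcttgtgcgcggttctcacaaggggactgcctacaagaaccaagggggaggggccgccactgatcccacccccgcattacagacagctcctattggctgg
In the Atp5k stretch the core occurs on both strands, overlapping itself. These matches describe the letters only. The spleen differences given below had a median of 0.54 (log2) over the 26 tested genes with a core in a window and 0.63 over the 37 with none.

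The arrays differed in ways that touch the spleen comparison. On the deposited scale, 2% trimmed mean signals were 590 to 594 in BCR-ABL1 arrays, 589 to 593 in spleen GFP-positive arrays, and 477 and 497 in the spleen GFP-negative arrays. The summed signal of 14 myeloid marker genes was 85640 to 87570 in spleen GFP-negative arrays, against 704 to 715 in spleen GFP-positive and 923 to 1180 in BCR-ABL1 arrays. In the spleen GFP-positive arrays 5 of the 14 (Camp, Ngp, Elane, Csf1r and Itgam) lay at the floor of 32. The sum of 11 T and NK cell markers was 19460 to 21130 in spleen GFP-negative and 1184 to 1192 in GFP-positive arrays. The 8 B cell markers summed to 51270 to 51680 and 41040 to 42920. The 9 markers of dividing cells summed to 14410 to 14830 in spleen GFP-negative, 48930 to 48990 in spleen GFP-positive and 53400 to 54230 in BCR-ABL1 arrays. Ratios of the 3′ to the 5′ Gapdh probe set averaged 1.91 in spleen GFP-negative arrays and 1.43 to 1.47 in the other groups. The spleen GFP-negative arrays, labelled as B cells, thus also carried myeloid and T cell markers. What part these differences have in the results was not tested, and both arrays of the group are touched, so the comparison cannot be made without them. In such bulk RNA, fewer cells of a type and less RNA per cell cannot be told apart.

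In the spleen, the subunit genes stood higher in GFP-positive than in GFP-negative cells. After quantile normalization, 71 of the 78 tested genes were called higher by limma (Benjamini-Hochberg adjusted p under 0.05 over all 12223 genes), none was called lower and 7 were not called. All 34 tested genes of complex I and all 17 of complex V were among them, with 3 of 4 of complex II, 7 of 8 of complex III and 10 of 15 of complex IV. Among all genes tested, 77.1% were called in this comparison, 45.7% higher and 31.4% lower. The median difference of the 78 genes was 0.58 on the log2 scale, a fold of 1.5, against 0.18 for all genes. In 38 of the 78 the difference was past 1.5-fold and in 12 past 2-fold. The shares of all genes past these limits were not counted, so these 2 counts have no background. Both GFP-positive arrays lay above both GFP-negative arrays for 71 of the 78, and below them for 1, against 49.9% and 35.6% of all genes. Taken over all 4 groups, the mean of 71 of the 78 genes was lowest in the spleen GFP-negative cells. The share of all genes lowest there was not counted. Both spleen GFP-negative arrays lay below both BCR-ABL1 GFP-negative arrays for 71 of the 78 genes and for 50.5% of all genes.

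The size of that count depended on how the arrays were scaled, because the 2 spleen groups differed across much of the array. With the deposited values left unscaled, 73 of the 78 genes were called higher and 0 lower, and with equal medians over all probe sets 75 and 0. Of all genes, 54.6% were called higher and 24.3% lower on the deposited scale, and 60.8% and 19.8% with equal medians. A scaling that sets the median ratio of tested genes to 1, added after results were seen, gave 55 higher and 10 lower, when 39.6% of all genes were called higher and 39.6% lower. One that sets equal medians over tested genes, also added later, gave 28 higher and 30 lower. Of all genes, 28.5% were then called higher and 52% lower. The members' median turned to -0.01 while that of all genes was -0.35. Relative to the median of all genes, the members' median was 0.34 to 0.40 higher under all 5 scalings. Apart from quantile normalization, the scalings differ only by shifts of all genes of an array alike, so this gap could hardly change between them. Called higher under every one of the 5 were 28 of the 78 genes, or 35.9%, beside 28.6% of all genes, and 0 of the 78 were called lower under every one, beside 19.7% of all genes. These 28 are the same genes as the 28 called higher under equal medians of tested genes, so that scaling alone set the count. The 28 were 15 genes of complex I, 2 of complex II, 3 of complex III, 5 of complex IV and 3 of complex V. The share called higher under every scaling was thus near that of all genes.

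**Figure D1:**
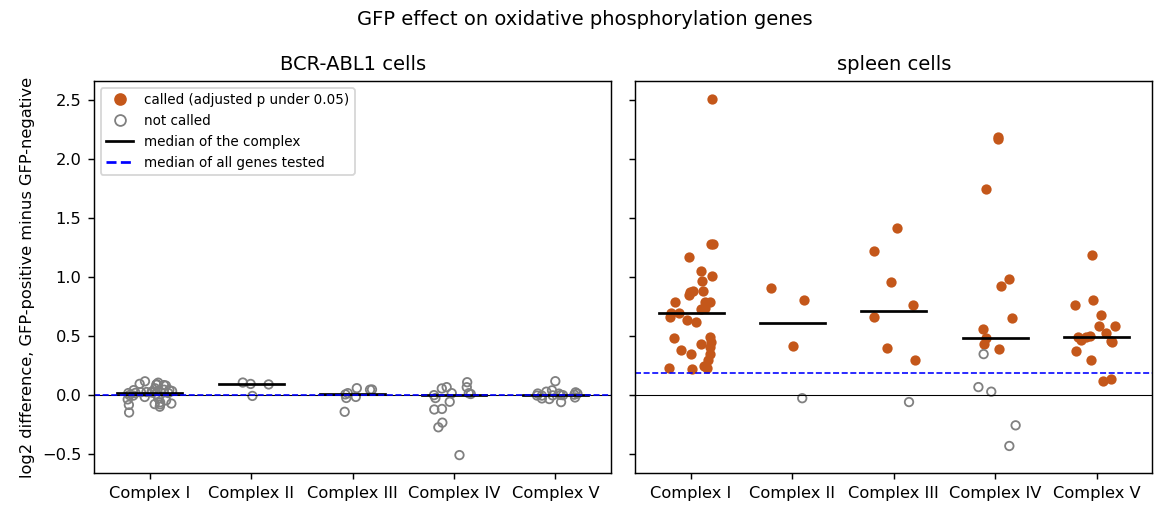
Log2 difference between GFP-positive and GFP-negative cells for each of the 78 tested genes (points), by complex, in BCR-ABL1 cells and spleen cells, after quantile normalization. Black bars are medians of a complex and the dashed line is the median of all genes tested. In BCR-ABL1 cells 0 of 78 genes were called, beside 5.37% of all genes. In spleen cells 71 were called higher, beside 45.7% of all genes. With arrays scaled to equal medians of tested genes, that number falls to 28, beside 28.5% of all genes.

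**Figure D2:**
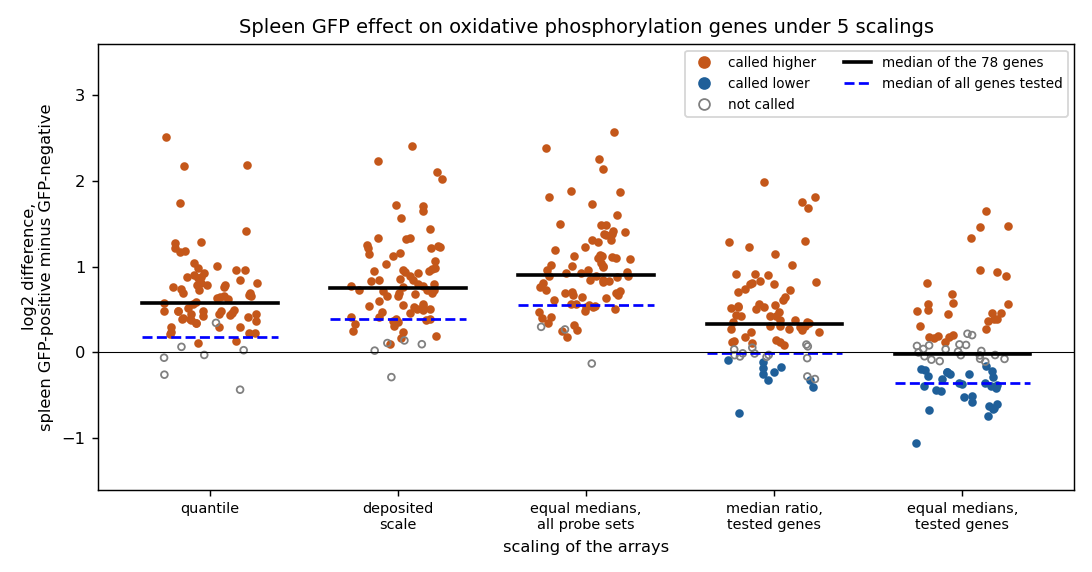
Spleen difference (log2, GFP-positive minus GFP-negative) of the 78 genes (points) under 5 scalings of the arrays, coloured by limma's call, with the median of the 78 genes (black bar) and of all genes tested (dashed bar). The black bar stays 0.34 to 0.40 above the dashed one. Apart from quantile normalization, the scalings differ only by shifts of all genes of an array alike, so this gap could hardly change between them. The counts called higher and lower move from 75 and 0 to 28 and 30. The shares of all genes called move from 60.8% and 19.8% to 28.5% and 52%.

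**Figure D3:**
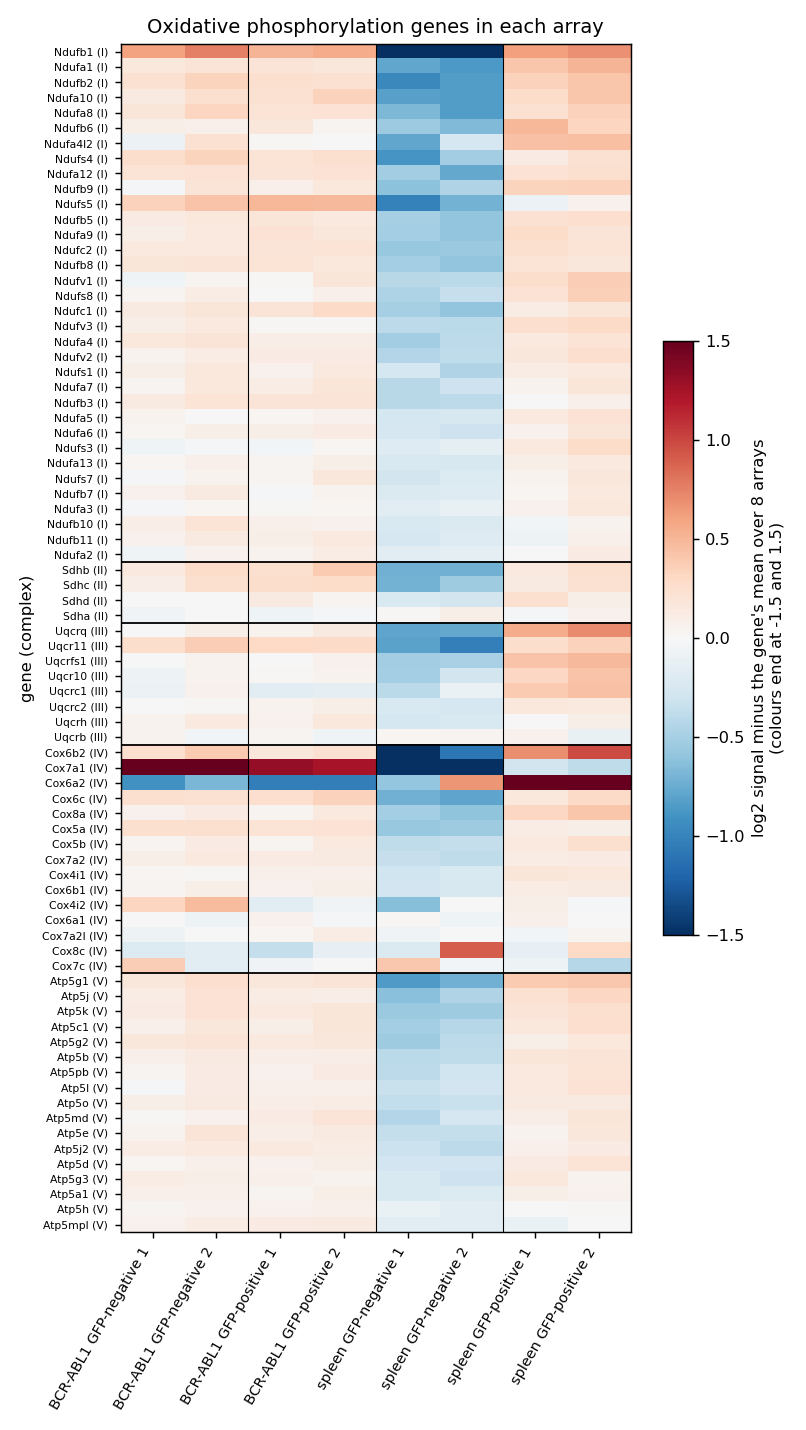
Quantile-normalized log2 signal of each of the 78 genes in each of the 8 arrays, less the gene's mean over the arrays, ordered by complex and by the spleen difference. The mean of the spleen GFP-negative arrays is the lowest of the 4 groups for 71 of the 78 genes, a pattern that depends on the scaling for the less changed genes. The share of all genes lowest there was not counted.

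Complex I, which oxidises NADH, had the widest set of higher genes in the spleen. Its 34 tested genes had differences from 0.22 (Ndufa2) to 2.51 (Ndufb1) with a median of 0.69, and 15 of the 34 were called higher under all 5 scalings. Ndufb1, an accessory subunit, had signals of 45.5 and 67.1 in the spleen GFP-negative arrays and 307 and 324 in the GFP-positive arrays. It read 285 to 339 in the 4 BCR-ABL1 arrays, so the spleen GFP-negative pair stood alone at the bottom. The spleen difference was 2.51 ± 0.18 (log2 ± SE), a fold of 5.71, with an adjusted p of 3.58e-06 by limma. Ndufa1, an accessory subunit of the membrane arm, read 2186 and 2078 in GFP-negative and 5029 and 5353 in GFP-positive spleen arrays, a difference of 1.28 ± 0.05 with an adjusted p of 1.14e-07. The groups did not overlap, and the BCR-ABL1 arrays, at 4204 to 4315, lay between them. For Ndufb2, an accessory subunit of the same arm, the spleen signals were 1163 and 1269 against 2888 and 3026.

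Among the electron-carrying subunits of complex I, Ndufv1, which binds the flavin that takes electrons from NADH, read 3362 and 3399 in GFP-negative and 5411 and 5816 in GFP-positive spleen arrays, a difference of 0.73 ± 0.07 (adjusted p = 1.33e-05). It was called higher under all 5 scalings. Ndufs1, the largest iron-sulphur subunit, read 2450 and 2147 against 3169 and 3262, a difference of 0.49 ± 0.07 (adjusted p = 0.000262). Under equal medians of tested genes its difference was 0.02 and no longer passed the test. The 2 GFP-positive arrays lay above the 2 GFP-negative ones for both genes.

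Ndufa4, first described in complex I and now counted as a subunit of complex IV, and its paralogue Ndufa4l2, a gene induced by low oxygen, were both higher under quantile normalization. Ndufa4 read 3055 and 3340 in GFP-negative and 4863 and 5049 in GFP-positive spleen arrays, a difference of 0.63 ± 0.05 (adjusted p = 6.87e-06). Ndufa4l2 was dim, at 61.3 and 88.3 against 143 and 144, a difference of 0.96 ± 0.19 (adjusted p = 0.00174). Its 2 GFP-negative arrays spread more than its GFP-positive ones, and neither gene was called higher under all 5 scalings.

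Complex II, succinate dehydrogenase, which also acts in the citric acid cycle, split within itself. Sdhb, its iron-sulphur subunit, read 2735 and 2730 in GFP-negative and 4954 and 5285 in GFP-positive spleen arrays, a difference of 0.91 ± 0.06 (adjusted p = 3.14e-06). Sdhc, a membrane anchor, read 1095 and 1240 against 1975 and 2102, a difference of 0.81 ± 0.08 (adjusted p = 2.71e-05). The 2 groups did not overlap for either gene, and both were called higher under all 5 scalings. Sdhd, the other anchor, read 1794 and 1742 against 2485 and 2239, a difference of 0.42 ± 0.07 (adjusted p = 0.000568). That call was lost under equal medians of tested genes, where the difference was 0.00032. Sdhd has 2 probe sets, and the one read here is of a kind that can also bind transcripts of related genes. Its difference was at most 0.92 under the 5 scalings but reached 1.71 over all alternatives to the processing. The size of the Sdhd difference thus depended on the processing.

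Sdha, the flavin-binding subunit where succinate is oxidised, did not follow them. It read 5977 and 6289 in GFP-negative and 5838 and 6186 in GFP-positive spleen arrays, and 5666 to 5904 in the BCR-ABL1 arrays, so the spleen groups overlapped. Its spleen difference was -0.03 with a 95% interval of -0.14 to 0.08 (adjusted p = 0.589). The sign turned with the scaling, from 0.26 under equal medians of all probe sets to -0.66 under equal medians of tested genes. A second, also bright probe set of Sdha gave 0.08. The difference of Sdhb less that of Sdha was 0.93 to 1.05 over the 5 scalings. For Sdhc less Sdha it was 0.84 to 1.15. Scalings other than quantile normalization differ only by shifts of all genes of an array alike, so such a gap between genes cannot change among them. The inequality within the complex was not tested as such.

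In complex III, which passes electrons from coenzyme Q to cytochrome c, 7 of 8 genes were called higher in the spleen. Uqcrq, a small subunit near the quinone site, read 1835 and 1875 in GFP-negative and 4690 and 5208 in GFP-positive spleen arrays. The BCR-ABL1 arrays, at 3206 to 3500, lay between the spleen groups. Its difference was 1.41 ± 0.06, a fold of 2.66 (adjusted p = 2.5e-07). Uqcr11, the smallest subunit, read 1261 and 1088 against 2653 and 2809, a difference of 1.22 ± 0.08 (adjusted p = 1.85e-06). Uqcrfs1, the Rieske iron-sulphur protein, read 2455 and 2503 against 4722 and 4904, a difference of 0.96 ± 0.05 (adjusted p = 4.59e-07). These 3 were called higher under all 5 scalings and their spleen groups did not overlap.

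Uqcrc1, a core protein of complex III, read 1874 and 2309 in GFP-negative and 3231 and 3362 in GFP-positive spleen arrays, a difference of 0.66 ± 0.10 (adjusted p = 0.000271). Under equal medians of tested genes its call was lost. Uqcrb, a subunit that contacts the bound quinone, was not called, with 7608 and 7714 against 7802 and 6912 and overlapping groups. Its difference was -0.06 with an interval of -0.21 to 0.08 (adjusted p = 0.397). Its second probe set, less bright, read 4197 and 4573 against 5568 and 5397 and gave 0.32 with an adjusted p of 0.000333 in a fit of every probe set. The reading of Uqcrb depended on the probe set and also on the scaling, since the brightest was called higher with equal medians of all probe sets (0.18) and lower under the median ratio (-0.40) and equal medians of tested genes (-0.74).

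Complex IV, cytochrome c oxidase, held both the most uneven and some of the largest differences. In the spleen 10 of its 15 tested genes were called higher, with differences over all 15 from -0.43 to 2.19 and a median of 0.48. Cox5a, a subunit present in all tissues, read 5478 and 5617 in GFP-negative and 8782 and 8657 in GFP-positive spleen arrays, a difference of 0.65 ± 0.03 (adjusted p = 2.76e-07). Under equal medians of tested genes its difference was 0.01 and was not called. Cox6c, a small membrane subunit, read 4230 and 4022 against 7804 and 8545, with a difference of 0.99 ± 0.05 (adjusted p = 6.26e-07). Cox8a, the common form of the smallest subunit, read 2428 and 2279 against 4308 and 4639, with a difference of 0.93 ± 0.06 (adjusted p = 1.99e-06). Both Cox6c and Cox8a were called higher under all 5 scalings.

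Several complex IV subunits exist as a common isoform and one restricted to certain tissues. Here the restricted isoform had the larger spleen difference in 3 of 5 families (Cox6a, Cox6b and Cox7a, but not Cox4 or Cox8). Cox7b2 and Cox8b did not pass the filter on low signal and are not part of this count. The restricted isoforms were also dim and their partners bright: over the 78 genes, Spearman's rho between mean log2 signal and spleen difference was -0.46, a description of probe sets on the same arrays, and the part of signal level in these differences was not tested. Cox7a1, the isoform known from heart and skeletal muscle, read 32 (the floor) and 42.9 in GFP-negative and 174 and 161 in GFP-positive spleen arrays, but 607, 622, 524 and 493 in the BCR-ABL1 arrays. The BCR-ABL1 cells thus had the highest signal and the spleen GFP-negative cells the lowest. Its spleen difference of 2.18 ± 0.16 (adjusted p = 3.22e-06) rests in part on the floor. Cox7a2, its common partner, read 9037 and 8837 against 12470 and 12520 in the spleen, a difference of 0.48 ± 0.03 (adjusted p = 1.4e-06) that reversed to -0.27 under equal medians of tested genes. Cox7a2l, a relative that joins complexes III and IV, read 5565 and 5735 against 5584 and 5931, with overlapping groups. It was not called, at 0.03 with an interval of -0.08 to 0.14 (adjusted p = 0.628), and it was called higher on the deposited scale (0.16) and with equal medians of all probe sets (0.32), and lower under the 2 scalings over tested genes (-0.26 and -0.60).

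Cox6a2, also known from heart and muscle, showed the opposite order between cell sources. It read 123 and 289 in GFP-negative and 574 and 698 in GFP-positive spleen arrays, and 89.2 to 114 in the 4 BCR-ABL1 arrays. The 2 spleen GFP-negative arrays differed from each other by more than 2-fold, and all spleen arrays lay above all BCR-ABL1 arrays. The spleen difference was 1.75 ± 0.34 (adjusted p = 0.00148). A second probe set, too dim for the test, read 198 and 199 in the spleen GFP-positive arrays and 32 to 33.8 in the other 6. Cox6a1, the common form, was not called: it read 9129 and 8665 against 9531 and 9094, a difference of 0.07 with an interval of -0.04 to 0.17 (adjusted p = 0.228). It was called higher with equal medians of all probe sets (0.26) and lower under the median ratio (-0.32) and equal medians of tested genes (-0.67), and its second probe set, at 3429 and 3407 against 5302 and 5174, gave 0.62.

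Cox6b2, an isoform known from testis, read 69 and 102 in GFP-negative and 347 and 423 in GFP-positive spleen arrays, with 242 to 282 in BCR-ABL1 arrays. The spleen groups lay on either side of the BCR-ABL1 values. The difference was 2.19 ± 0.19, a fold of 4.57 (adjusted p = 1.14e-05). Cox6b1, its common partner, read 8452 and 8692 against 11120 and 11310, a difference of 0.39 ± 0.03 (adjusted p = 6.31e-06) that reversed to -0.35 under equal medians of tested genes and to -0.01 under the median ratio. The restricted isoforms Cox7a1, Cox6a2 and Cox6b2 were called higher under all 5 scalings, and their common partners, on far brighter probe sets, were not.

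**Figure D4:**
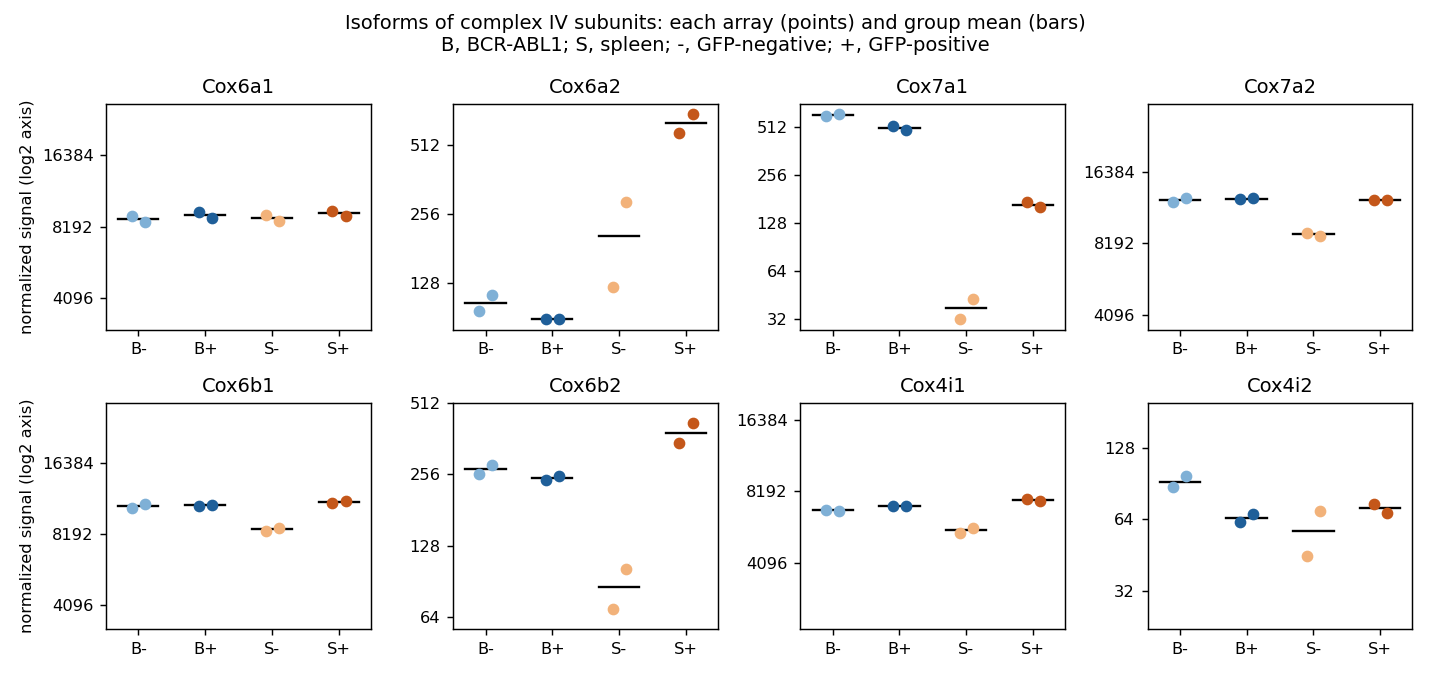
Quantile-normalized signal (log2 axis, each panel with its own range) of common and tissue-restricted isoforms of 4 complex IV subunits in each array (points) with group means (bars). Cox7a1 is highest in BCR-ABL1 cells, Cox6a2 in spleen GFP-positive cells, while Cox6a1, Cox6b1, Cox7a2 and Cox4i1 differ less between groups, with spleen differences of 0.07 to 0.48 that reverse under equal medians of tested genes.

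In the Cox4 family, Cox4i1, the common form, read 5462 and 5758 in GFP-negative and 7601 and 7490 in GFP-positive spleen arrays. Its difference of 0.43 ± 0.04 (adjusted p = 9.34e-06) reversed to -0.21 under equal medians of tested genes. Cox4i2, the form known from lung and low oxygen, was near the filter, at 45 and 69.7 against 74.2 and 68.3, and was not called (0.35, adjusted p = 0.151). Without the second spleen GFP-negative array its difference was 0.68 and was called (adjusted p = 0.00286), without the first it was 0.03, and under equal medians of tested genes it was called lower (-0.62). Cox8c, the testis form of Cox8, read 70.4 and 153 against 75.1 and 100.3 and was also not called (-0.26, adjusted p = 0.487). Without the first spleen GFP-negative array Cox8c was called lower (-0.84, adjusted p = 0.01), and without the second its difference was 0.31 and not called; it was also called lower under the median ratio (-0.71) and equal medians of tested genes (-1.05). Both dim isoforms had overlapping spleen groups. Cox7c, a small membrane subunit, read 728 and 537 against 524 and 409 on its brightest probe set with 1 symbol and was not called (-0.43 ± 0.21, adjusted p = 0.0943). Its second probe set, at the floor in both GFP-negative arrays and at 106 and 61.5 in the GFP-positive ones, pointed the other way.

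In complex V all 17 tested genes were called higher in the spleen under quantile normalization. They lay between 0.12 (Atp5mpl) and 1.19 (Atp5g1) in the spleen, with a median of 0.49, and 3 of the 17 were called higher under all 5 scalings. Atp5b, the catalytic beta subunit, read 6107 and 6243 in GFP-negative and 9182 and 9292 in GFP-positive spleen arrays, a difference of 0.58 ± 0.03 (adjusted p = 9.47e-07). Atp5a1, the alpha subunit, read 8628 and 8791 against 10740 and 10590, a difference of 0.29 ± 0.03 (adjusted p = 2.48e-05). The groups did not overlap for either, but under equal medians of tested genes both signs turned, to -0.08 and -0.45. Atp5j, a stalk subunit, read 3810 and 4329 against 6915 and 7303, a difference of 0.81 ± 0.07 (adjusted p = 6.7e-06), and Atp5k, the small e subunit, read 5390 and 5507 against 9058 and 9428, a difference of 0.76 ± 0.04 (adjusted p = 5.88e-07). Both were called higher under all 5 scalings.

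The ring of the ATP synthase is built from subunit c, which Atp5g1, Atp5g2 and Atp5g3 encode with different import signals. Atp5g1 read 3966 and 4349 in GFP-negative and 9406 and 9517 in GFP-positive spleen arrays, a difference of 1.19 ± 0.05 and a fold of 2.28 (adjusted p = 1.51e-07). Atp5g2 read 4695 and 5178 against 7224 and 7573, a difference of 0.58 ± 0.05 (adjusted p = 9.57e-06). Atp5g3 read 9053 and 8580 against 11830 and 10980, a difference of 0.37 ± 0.04 (adjusted p = 5.25e-05). On these brightest probe sets the order of the 3 differences was Atp5g1, Atp5g2 and Atp5g3. A dim probe set of Atp5g1, near the floor in all spleen arrays, gave 0.03. A dim one of Atp5g2, with 1 GFP-negative array at the floor, gave 1.56, so the order depended on the probe set. Of the 3, Atp5g1 alone was called higher under all 5 scalings, and the other two had negative signs under equal medians of tested genes, at -0.03 and -0.38.

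In BCR-ABL1 cells, no difference between GFP-positive and GFP-negative cells passed the test for any of the 78 genes. By limma 0 of 78 were called in either direction, beside 5.37% of all genes (3.07% higher and 2.3% lower). At an unadjusted p under 0.05 there were 2 of the 78 and 1863 of all 12223 genes. The smallest adjusted p was 0.194, for Ndufv3, a small subunit of the NADH-oxidising part of complex I, which read 7236 and 7556 in GFP-negative and 6894 and 6897 in GFP-positive arrays. The other was Cox4i2, dim at 87.6 and 97.3 against 62.1 and 67.5, with a difference of -0.51 and an interval of -0.98 to -0.04 (adjusted p = 0.268). Cox4i2 was called lower with array weights, with a floor of 64, and when either spleen GFP-negative array was left out of the shared estimate of the spread (adjusted p = 0.0177 to 0.034).

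The BCR-ABL1 differences of the 78 genes lay between -0.51 and 0.12 with a median of 0.01, and that of all genes was 0. The 95% interval of a difference extended a median of 0.12 to each side, and for 70 of the 78 genes it lay within 0.5 of 0. For Sdha it ran from -0.12 to 0.10 and for Atp5b from -0.08 to 0.07, while for Cox6a2 it ran from -1.02 to 0.55. Both GFP-positive arrays lay above both GFP-negative ones for 13 of the 78 and below for 13, against 27.4% and 24% of all genes.

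The 2 GFP differences were set against each other gene by gene. The spleen difference was larger than the BCR-ABL1 difference for 70 of the 78 genes by limma's interaction test and smaller for 0, with a median of 0.60 for the difference between them. Among all genes 69% were called in this test, 41% higher and 28% lower, and the median was 0.18. By complex, the 70 were 33 of 34, 3 of 4, 7 of 8, 11 of 15 and 16 of 17. Called higher under all 5 scalings were 26 of the 78, or 33.3%, and 0 lower, beside 25.8% and 18.1% of all genes. Ndufb1 had the largest such difference (2.66 ± 0.26, adjusted p = 3.52e-05), followed by Cox7a1 (2.45 ± 0.22, adjusted p = 2.24e-05) and Cox6b2 (2.32 ± 0.27, adjusted p = 0.000106). Ndufa2, Atp5mpl, Sdha, Uqcrb, Cox6a1, Cox7a2l, Cox7c and Cox8c were not called.

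Among GFP-positive cells, most of these genes were not called between BCR-ABL1 and spleen cells. Of the 78 genes 5 were called higher in BCR-ABL1 cells, 16 lower and 57 not, beside 50.3% of all genes called (24.8% higher and 25.5% lower). The median was -0.06 and that of all genes -0.05. Complex III had 5 of its 8 genes lower in BCR-ABL1 cells and complex II 0 of 4 called. Uqcrc1 read 2204 and 2232 in BCR-ABL1 and 3231 and 3362 in spleen GFP-positive arrays, a difference of -0.57 ± 0.10 (adjusted p = 0.00136). Uqcrq differed by -0.54 ± 0.06 (adjusted p = 0.000174) and Uqcrfs1 by -0.43 ± 0.05 (adjusted p = 0.000136), with no overlap between groups. Without probe sets of the kinds that can also bind transcripts of related genes, Uqcrq was not called (adjusted p = 0.372 by limma). Both BCR-ABL1 GFP-positive arrays lay below both spleen GFP-positive arrays for 38 of the 78 genes and above for 13. Among all genes the shares were 44.1% and 35.8%. In the whole set 15 genes were called lower under all 5 scalings, or 19.2%, beside 23.4% of all genes, and 3 higher (Cox7a1, Ndufs5 and Atp5mpl), beside 21.9%.

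Complex IV had the largest differences between the cell sources, in both directions. Cox6a2 was lower in BCR-ABL1 cells, at 89.2 and 89.4 against 574 and 698 in spleen GFP-positive arrays, with a difference of -2.83 ± 0.34 (adjusted p = 0.000181). Cox7a1 was higher there, at 524 and 493 against 174 and 161, with a difference of 1.60 ± 0.16 and a fold of 3.03 (adjusted p = 5e-05). These opposite differences are the only 2 past 2-fold among the 78 genes in this comparison. Ndufs5, an accessory subunit of complex I, was also higher, at 3523 and 3495 against 2341 and 2605 (0.51 ± 0.10, adjusted p = 0.00306), as were by smaller amounts Ndufb3, Cox5a and Atp5mpl. Ndufb3 read 4651 and 4673 in BCR-ABL1 and 4079 and 4305 in spleen GFP-positive arrays. The spleen GFP-positive and BCR-ABL1 arrays did not overlap for Cox6a2, Cox7a1 or Ndufs5. Fewer of the 78, and fewer of all genes, were called without either BCR-ABL1 GFP-positive array or without the second spleen GFP-positive array. The median of the 78 was -0.04 without the first BCR-ABL1 array, -0.07 without the second and -0.04 without that spleen array.

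Where a gene had several probe sets, they mostly pointed one way in the spleen. Of 46 genes with several tested probe sets, 39 had the same sign on all and 34 were called the same way on all. The same count was not made over all genes, and 77.7% of all tested probe sets were called in the spleen. Atp5c1, the gamma subunit of complex V, read 6705 and 7105 in GFP-negative and 10640 and 11410 in GFP-positive spleen arrays on its brightest probe set, a difference of 0.67. A dimmer probe set read 548 and 707 against 294 and 314, a difference of -1.04 (adjusted p = 0.00183). Ndufb2 rose on 2 probe sets, but another read 1079 and 1290 against 191 and 216, a difference of -2.54, so that the mean over its probe sets was not called. Atp5j2, the f subunit of complex V, had a further, dim probe set with a difference of -0.59. Over all 152 tested probe sets of these genes, 134 were called higher in the spleen and 3 lower, beside 49% and 28.7% of all 22571 tested probe sets. Of the 78 probe sets that stand for the genes, 18 are of the kinds that can also bind transcripts of related genes, and their values are less certain.

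Genes that build and feed the complexes were read from lists chosen with earlier results of these data known. Of 47 tested assembly factors, which insert cofactors or join subunits, 38 were called higher in GFP-positive spleen cells and 3 lower, with a median of 1.04. Among all genes the shares were 45.7% higher and 31.4% lower, and 28.6% were higher under all 5 scalings. Sdhaf3, which helps mature the complex II iron-sulphur subunit, read 81.6 and 60.4 in GFP-negative and 773 and 817 in GFP-positive arrays, a difference of 3.5 ± 0.15 (adjusted p = 1.83e-07). Ndufaf6, a complex I assembly factor, differed by 3.39 and Sco1, a copper carrier to complex IV, by 3.22, with its 2 GFP-negative arrays at 97.5 and 276. The GFP-negative arrays of all 3 were far below the GFP-positive ones. Of 76 mitochondrial ribosome genes, whose products translate the subunits encoded by mitochondrial DNA, 75 were called higher and 1 lower (Mrpl24), with a median of 0.86. The same count was 18 and 1 of 21 for protein import, 15 and 0 of 17 for the citric acid cycle and pyruvate dehydrogenase, 10 and 4 of 15 for cytochrome c and coenzyme Q synthesis, 9 and 0 of 12 for chaperones and proteases, 7 and 0 of 8 for carriers and 5 and 1 of 7 for antioxidants. Under all 5 scalings 31 assembly factors, 52 ribosome, 13 import, 9 citric acid cycle, 8 cytochrome c and coenzyme Q, 4 chaperone, 1 carrier and 1 antioxidant genes were called higher.

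Regulators of mitochondrial gene expression did not share one direction. Of 21, 6 were called higher in GFP-positive spleen cells and 5 lower, with a median of -0.05, beside 45.7% and 31.4% of all genes. Ppargc1a, a coactivator of respiratory genes, read 454 and 377 in GFP-negative and 63.5 and 44.7 in GFP-positive spleen arrays, a difference of -2.96 ± 0.19 (adjusted p = 1.66e-06). It was also the 1 gene of all these mitochondrial lists called in BCR-ABL1 cells (-0.87, adjusted p = 0.037), where 5.37% of all genes were called. Tefm and Tfb1m, which act in mitochondrial transcription and on its ribosomal RNA, differed by 1.53 and 1.5. In GFP-positive cells, 42 of the 76 mitochondrial ribosome genes were lower in BCR-ABL1 than in spleen cells and 4 higher, while the assembly factors had 17 lower and 5 higher of 47, beside 25.5% lower and 24.8% higher of all genes.

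**Figure D5:**
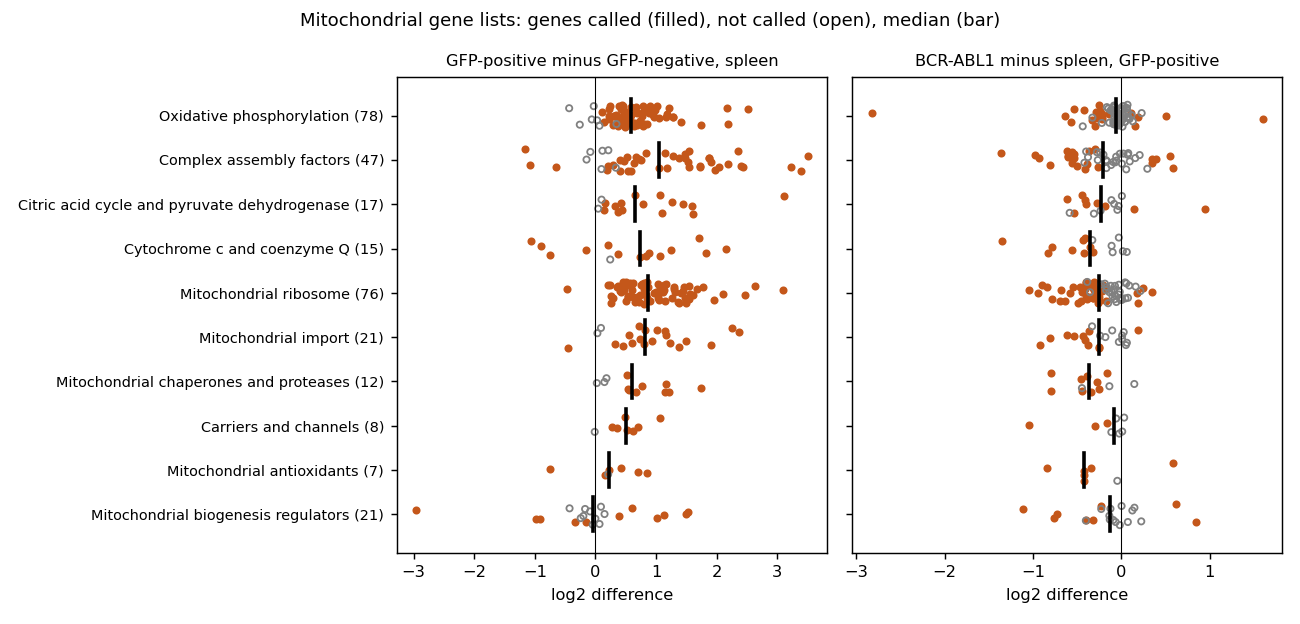
Log2 differences of the 78 oxidative phosphorylation genes and of 9 other mitochondrial gene lists (number of tested genes in brackets), quantile-normalized, for GFP-positive minus GFP-negative spleen cells and for BCR-ABL1 minus spleen GFP-positive cells. Filled points were called by limma and bars are medians. The spleen medians run from -0.05 (regulators) to 1.04 (assembly factors), and the counts called in the spleen depend on the scaling. Under all 5, 28 of the 78 oxidative phosphorylation genes and 31 of 47 assembly factors were called higher, beside 28.6% of all genes.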

How the data were processed

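The values are signal intensities on a linear scale, as deposited by the authors; GCOS 1.3 is named in the submitters' processing notes, and how probes were summarised and arrays scaled is not given in the sources used here. Probe sets of controls (64) were left out. Trimmed means differed 1.25-fold, above a limit of 10%, so arrays were quantile normalized. Values under 32 were set to 32 and log2 transformed. Probe sets with a mean under the 40th percentile (log2 of 5.67, or 51 on the linear scale) stayed out of the fit. A gene's value is that of its brightest tested probe set with 1 symbol in GEO's platform annotation. limma 3.58.1 (R 4.3.3) fitted the 4 group means with a trended eBayes prior and 4 residual degrees of freedom, with Benjamini-Hochberg adjustment over 12223 genes. The fit was tested on simulated data. Per-array values were given for the 3 genes of each complex with the largest called differences, isoform families, core subunits and genes called against the rest of their complex, with a few others chosen after their values were seen. The genes and lists were chosen with earlier results of these data known. Alternatives changed the scaling, floor, filter, probe set choice, variance prior, weights, block and arrays used; 2 scalings over tested genes and 1 within each cell source were added after results were seen. A comparison of isoform protein sequences was planned and not made.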

Additional observations from a re-analysis of the deposited data

Results flagged for a closer look

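The GFP effect differed between the 2 cell sources by limma's interaction test for 70 of the 78 oxidative phosphorylation genes, all of them larger in the spleen. Among all genes 41% were called larger in the spleen and 28% smaller, and under all 5 scalings 33.3% of the 78 genes and 25.8% of all genes were called larger. The 70 were 33 genes of complex I, 3 of complex II, 7 of complex III, 11 of complex IV and 16 of complex V. The spleen difference less the BCR-ABL1 difference was at least 1 on the log2 scale for 12 genes. It was 2.66 for Ndufb1, 2.45 for Cox7a1, 2.32 for Cox6b2 and 1.99 for Cox6a2. For Uqcrq it was 1.37, for Ndufb2 1.33, for Ndufa1 1.28, for Uqcr11 1.25 and for Atp5g1 1.22. For Ndufa8 it was 1.09, for Ndufa10 1.08 and for Ndufa4l2 1.03. Under equal medians of tested genes, 26 of the 78 were called larger in the spleen and 23 smaller, beside 25.7% and 46.1% of all genes.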

How the results depend on the processing

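With 2 arrays a group and the spleen GFP-negative arrays set apart in signal and markers, the scaling was the choice that moved results most. In the spleen the genes' median was 0.75 on the deposited scale, 0.91 with equal medians, 0.33 under the median ratio of tested genes (10 called lower) and -0.0146 with equal medians of tested genes (28 higher, 30 lower); without probe sets of the x and s kinds it was 0.63 (1 lower, Atp5c1). Of all genes, 28.5% were called higher and 52% lower with equal medians of tested genes. Over every probe set 134 of 152 were higher and 3 lower, beside 49% and 28.7% of all probe sets. Of all genes, 39.6% were called lower under the median ratio and 30.4% without the x and s kinds. In the main fit 38 of the 78 genes were past 1.5-fold, and the share of all genes past that limit was not counted. For the interaction the medians were 0.74, 0.89, 0.33 and 0.0147 under the same 4 scalings, with 7 lower under the median ratio, 26 higher and 23 lower with equal medians of tested genes, 127 and 3 over every probe set, 40 past 1.5-fold and 1 lower without the x and s kinds. Of all genes, 25.7% had a higher and 46.1% a lower interaction with equal medians of tested genes. Under the median ratio 35% of all genes were lower, and without the x and s kinds 27.1%. Over every probe set the shares were 44.2% higher and 25.1% lower, and the share past 1.5-fold was not counted. In BCR-ABL1 cells 1 gene was lower with a floor of 64 or with array weights, and the median was -0.0287 with equal medians of tested genes. Of all genes, 2.65% were lower with that floor and 5.13% with array weights. Between sources, equal medians gave 3 higher, 29 lower and a median of -0.11, equal medians of tested genes 3 higher and a median of -0.0916, no variance trend 2 higher, every probe set 9 higher and 38 lower, and a 1.5-fold limit 1 higher and 2 lower. With one array left out, the lone array of a group is assumed to vary like the others; spleen counts were 68 to 71 higher and 0 to 1 lower with medians of 0.55 to 0.64, interaction counts 66 to 69 and 0 to 1 with medians of 0.56 to 0.63, BCR-ABL1 lower counts 0 to 1 with medians of -0.0173 to 0.0367, and source counts 3 to 5 higher and 8 to 21 lower with medians of -0.08 to -0.04. The spleen difference was positive for 74 of the 78 genes, for 59 under the median ratio and for 39 under equal medians of tested genes. Among genes added to the text beyond the planned ones, it turned to -0.0296 for Atp5c1 under equal medians of tested genes. For Uqcrb it turned to 0.18 with equal medians. Among the planned genes (largest called differences, isoform families, core subunits and genes called against their complex), equal medians of tested genes reversed it for Atp5a1 (-0.45), Atp5b (-0.0751), Atp5g2 (-0.0311), Atp5g3 (-0.38), Cox4i1 (-0.21), Cox4i2 (-0.62), Cox6a1 (-0.67), Cox6b1 (-0.35), Cox7a2 (-0.27), Cox7a2l (-0.60) and Ndufb3 (-0.0734), and the median ratio for Atp5a1 (-0.11), Atp5g3 (-0.0312), Cox6a1 (-0.32), Cox6b1 (-0.01) and Cox7a2l (-0.26). Sdha, also planned, turned positive on the deposited scale (0.105) and with equal medians (0.26). Of the interactions of these genes, equal medians of tested genes reversed Atp5a1 (-0.42), Atp5b (-0.0198), Atp5g3 (-0.30), Cox4i1 (-0.21), Cox4i2 (-0.00227), Cox6a1 (-0.68), Cox6b1 (-0.32), Cox7a2 (-0.24), Ndufb3 (-0.0602) and Sdhd (-0.0569), the median ratio Atp5a1 (-0.11), Cox6a1 (-0.37) and Cox6b1 (-0.0104), and equal medians Cox7a2l (0.22) and Sdha (0.27); between sources the mean of probe sets reversed Atp5g1 (0.51). Replicate numbers are shared by the groups only as labels (deviations of same-numbered arrays correlated at 0.13 in BCR-ABL1 and 0.27 in spleen cells over 12223 genes). With the replicate block, spleen counts were 72 higher and 1 lower (Cox7c), BCR-ABL1 0, the interaction 70 higher and the sources 6 and 17. Of all genes, 47% were then higher and 32.9% lower in the spleen, and 5.85% were called in BCR-ABL1 cells. The interaction was higher for 42.5%, and between sources 23.6% were higher and 23.4% lower. For these reversals other than the scalings' own shift of all genes, the cause was not tested.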

Other observations

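Several subunit genes share bright probe sets with pseudogenes or near-identical copies and so lie outside the 164 probe sets described, and their signals cannot be assigned to 1 gene. They were not tested, and the values are quantile-normalized signals. The probe set of Ndufs6 and Ndufs6b, an accessory subunit of complex I and its copy, read 3009 and 3031 in the spleen GFP-negative arrays, 5107 and 5702 in the spleen GFP-positive arrays, and 4695, 5144, 4781 and 5076 in the BCR-ABL1 arrays. The brighter probe set of Ndufa11 and Ndufa11b read 3002 and 3364 in the spleen GFP-negative and 4906 and 5338 in the GFP-positive arrays. Ndufb4, absent from the test on its own probe sets, shares a probe set with Ndufb4b and Ndufb4c that read 4119 and 4016 against 5567 and 5807. In these 3 shared probe sets, as in the probe set of Ndufs5 and its pseudogene at 3298 and 3363 against 5498 and 5753, the spleen GFP-negative arrays were the lowest pair after quantile normalization.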
